A study of Mus musculus with 5 samples.

Results

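Cebpa encodes C/EBP alpha, a transcription factor of the basic leucine zipper family, and its CpG methylation is described here in mouse LSK cells. The window runs from 35890000 to 35950000 on chromosome 7 (mm9) and takes in the gene, which lies at about 35904300 to 35907000, and the enhancer known about 37 kb downstream. All CpGs of this window listed in any of 5 deposited tables were taken, with both strands of a CpG merged. This gave 182 CpGs, against 1075765 to 1184870 CpGs in the whole table of a library. Of the 182 CpGs, 162 were covered in all 5 libraries, against 1029293 autosomal CpGs in all.

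The LSK fraction of bone marrow (Lin- Sca1+ cKit+), in which blood stem cells and early progenitors are found, was sorted from femurs, tibiae and iliac crests. There were 2 libraries with KO in the title (KO libraries 1 and 2) and 3 wild-type libraries (WT libraries 1, 2 and 3), all C57BL/6. The genotype label of both KO libraries marks a germ line targeted allele as heterozygous (+/-), which differs from the title, and KO here stands for the title only. No treatment is listed. The age of the animals behind these libraries is not in the labels (the series' design names 12 months for the transcriptome). Nothing in the labels ties the libraries to separate animals. P-values therefore reflect how much these 5 libraries varied, and that variation may be technical. These libraries hold no RNA, so the sorted fraction could not be checked against its markers here.

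C/EBP alpha is needed for granulocyte formation: it drives progenitors towards the myeloid lineage and slows their division. Cebpa is a gene of a single exon with a CpG-rich promoter, and in myeloid progenitors its transcription depends on the enhancer about 37 kb downstream, where other blood transcription factors bind. CpG-rich promoters are usually free of methylation and active enhancers are usually low in it, while CpGs between them are usually methylated. Among protein-coding genes of the RefSeq annotation (GRCm38.p6, used for names and order only), the next on the downstream side is Slc7a10, a gene of an amino acid transporter, and 5 long non-coding RNA genes lie between the pair.

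The assay, enhanced reduced representation bisulfite sequencing (ERRBS), cuts DNA with MspI at CCGG and reads the fragment ends, so it sees CpGs near such sites only. Bisulfite makes unmethylated cytosines read as T, and the methylation level of a CpG is the percent of its reads that keep a C. The 250 bases before the Cebpa start are shown because they hold the last measured CpGs of the promoter and the sites that decide what the assay sees. They are taken from RefSeq (GRCm38.p6, chr7:35119043-35119292, plus strand), in lower case with the 3 measured CpGs in capitals.
Cebpa promoter: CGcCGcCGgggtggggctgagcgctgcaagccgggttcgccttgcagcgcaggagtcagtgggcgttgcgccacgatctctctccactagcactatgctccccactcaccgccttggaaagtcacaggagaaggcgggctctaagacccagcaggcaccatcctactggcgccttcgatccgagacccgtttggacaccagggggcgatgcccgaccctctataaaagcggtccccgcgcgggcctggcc

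This stretch holds 22 CpGs, against a median of 6 over the 32851 promoter windows of the same table, and 85.2% of those windows hold fewer. The capitals mark bases 1, 4 and 7, which have the spacing of the measured CpGs at 35904062, 35904065 and 35904068 (mm9). They were placed by spacing alone, at the one of 2 possible positions in the window whose end lies within 100 bp of the gene start. The motif CCGG, searched on both strands, starts at bases 6 and 31 and is found in 47.1% of the promoter windows. The motif TATAAAA (both strands) starts at base 221, which is 30 bases before the start, and is found in 4.98% of the windows. Neither CCAAT (in 33.8% of the windows, both strands) nor TTGCGCAA, the C/EBP palindrome (in 0.164%), occurs in these letters. The other 19 CpGs of the stretch had no entry in any library.

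Total coverage ran from 122015958 to 151634492 reads summed over the entries of a library. Over the 162 CpGs covered in all libraries, the median was 88 and 133 reads per CpG in KO libraries 1 and 2, and 110.5, 120.5 and 113 in WT libraries 1, 2 and 3. KO library 1 differed from the others over the whole genome. Its mean level at autosomal CpGs of 20 to 80% was 58.3%, against 52.5% in KO library 2 and 51.3% to 52.0% in the WT libraries. Setting the median coverage of CpGs under 20% against that of CpGs over 80% gave 1.06 times in KO library 1, against 2 times in KO library 2 and 1.64 to 1.99 times in the WT libraries. Wilson intervals, and the upper limits given where no read was methylated (3 reads out of the coverage), cover counting error only, since no molecular identifiers are named in the protocols.

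The measured CpGs of Cebpa were unmethylated in every library. No CpG was covered between -232 and 117 bp from the gene start, or in the rest of the gene after 1477 bp. An unbroken run of CpGs under 20% stretched from 35903419 to 35905777, or -881 to 1477 bp relative to the gene start, over 2359 bp. It held 128 CpGs covered in all 5 libraries. Their mean level was 0.391% and 0.319% in KO libraries 1 and 2, against 0.420%, 0.285% and 0.323% in WT libraries 1, 2 and 3. The KO and WT values overlapped, and no single CpG averaged over 1.89% across the libraries.

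Not 1 of the 5 libraries had a methylated read at 42 of these 128 CpGs. Over all autosomal CpGs covered in all libraries, 26.3% had no methylated read. In the block, single values of 5% or more occurred once in KO library 1 and once in WT library 3. The value in WT library 3 was the highest level of the block, 8.16% at 35904776 (49 reads), where both KO libraries and WT library 2 had 0% and WT library 1 had 1.28%. Coverage of a CpG in the block ran from 16 to 451 reads, so a count of 0 at a single CpG often allows a level of some percent. Summed over the 128 CpGs, 49 of 13010 counts were methylated in KO library 1 and 70 of 20718 in KO library 2. In the WT libraries 80 of 17978, 49 of 18417 and 48 of 16554 were methylated. Reads over several CpGs enter these sums several times.

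**Figure D1:**
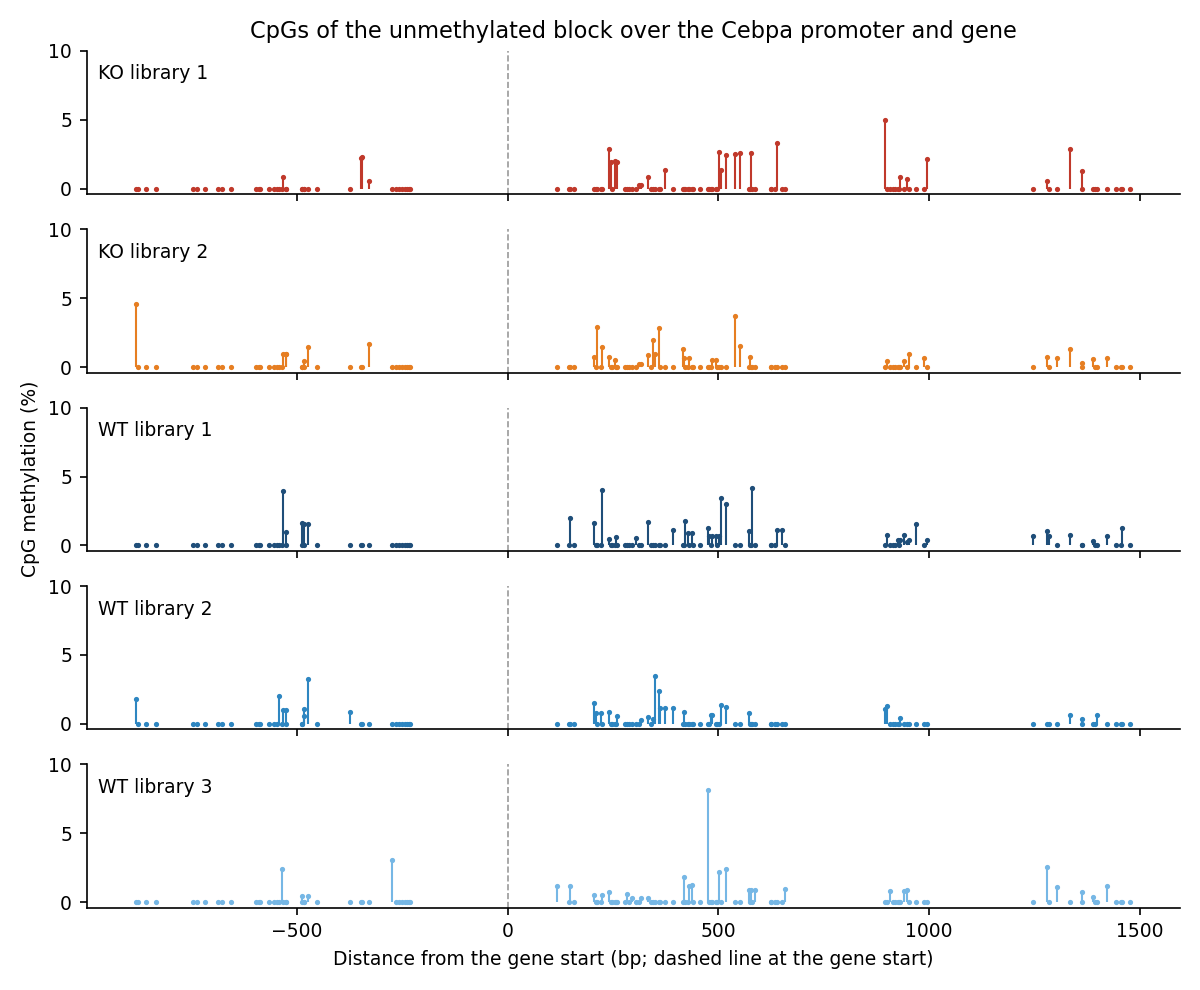
CpG methylation (percent, y axis) against distance from the gene start (bp, x axis) for the CpGs of the unmethylated block covered in all libraries, 1 panel per library, with a line and point per CpG. Most points lie at 0 in every panel, and the tallest line is the 8.16% of WT library 3.

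The edges of the block were not seen directly. The nearest measured CpG on the upstream side, 35902057, lies 1362 bp before it and averaged 94.8% over the 5 libraries. On the downstream side the nearest one, 35908617, lies 2840 bp after it and averaged 95.4%. Between these 2 CpGs and the block no CpG was covered in all libraries, so the switch from methylated to unmethylated lies somewhere in those gaps in both groups.

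By segment, the promoter (the 2000 bp before the gene start) held 39 CpGs covered in all libraries. They averaged 0.217% ± 0.0911 (SD, n = 2) in KO and 0.236% ± 0.0654 (SD, n = 3) in WT libraries. The gene held 89 such CpGs, with 0.415% ± 0.114 (SD, n = 2) in KO and 0.389% ± 0.108 (SD, n = 3) in WT libraries. Neither difference exceeded the spread between libraries (exact permutation test, two-sided, p = 0.7 for both, where the smallest p of 2 against 3 libraries is 0.1). KO library differences from single WT libraries ran from -0.142 to 0.116 points in the promoter and from -0.161 to 0.216 points in the gene. The sign of both mean differences turned without KO library 1, to 0.0457 points in the promoter and -0.0544 points in the gene.

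The measured CpGs of the enhancer window were free of methylated reads in all 5 libraries. In the window of 2500 bp either side of the point 37 kb past the gene start, the assay covered 5 CpGs: 35941599, 35941602 and 35941638 on the forward strand, and 35941690 and 35941718 on the reverse strand. They span 120 bp at 37.3 to 37.4 kb from the gene start. The bounds of the enhancer itself were not located, so whether these CpGs lie inside it was not tested. Each of them had 0 methylated reads in every library, at a coverage of 46 to 156 reads.

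CpGs of a strand are covered by the same reads, so the largest coverage per strand was counted once. In KO library 1 there were 110 reads with none methylated, which allows a level of up to 2.73%, and in KO library 2 there were 209 reads, which allow up to 1.44%. The WT libraries had 178, 208 and 246 reads, which allow up to 1.69%, 1.44% and 1.22%. These limits join the reads of both strands, which cover different CpGs, so they hold for the 5 CpGs together. At the single CpG with the fewest reads, the limit was 6.52% and 3.19% in KO libraries 1 and 2. In WT libraries 1, 2 and 3 it was 4.0%, 3.95% and 3.33%. A difference between the groups was not detectable at this depth. With no methylated read there was nothing to test, and the tile of these CpGs entered no model.

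Tiles of so few CpGs without any methylated read were uncommon in these libraries, while 26.3% of single autosomal CpGs had none. The tiles compared were not matched to the coverage or to the short span of the CpGs of the enhancer window. Among autosomal 1000 bp tiles with 5 covered CpGs, 47 of 10150, or 0.463%, had no methylated read in any library. Among tiles with 3 to 9 CpGs the share was 0.453% of 69276, and 6.08% of them averaged under 1%. The measured CpGs around the 5 CpGs of the enhancer window were different. The nearest on the gene side, 35936909, lies 4690 bp away and is described below. The nearest on the far side that all libraries covered, 35948723, lies 7005 bp away. It had 100% in both KO libraries, against 95.5%, 100% and 95.1% in WT libraries 1, 2 and 3.

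**Figure D2:**
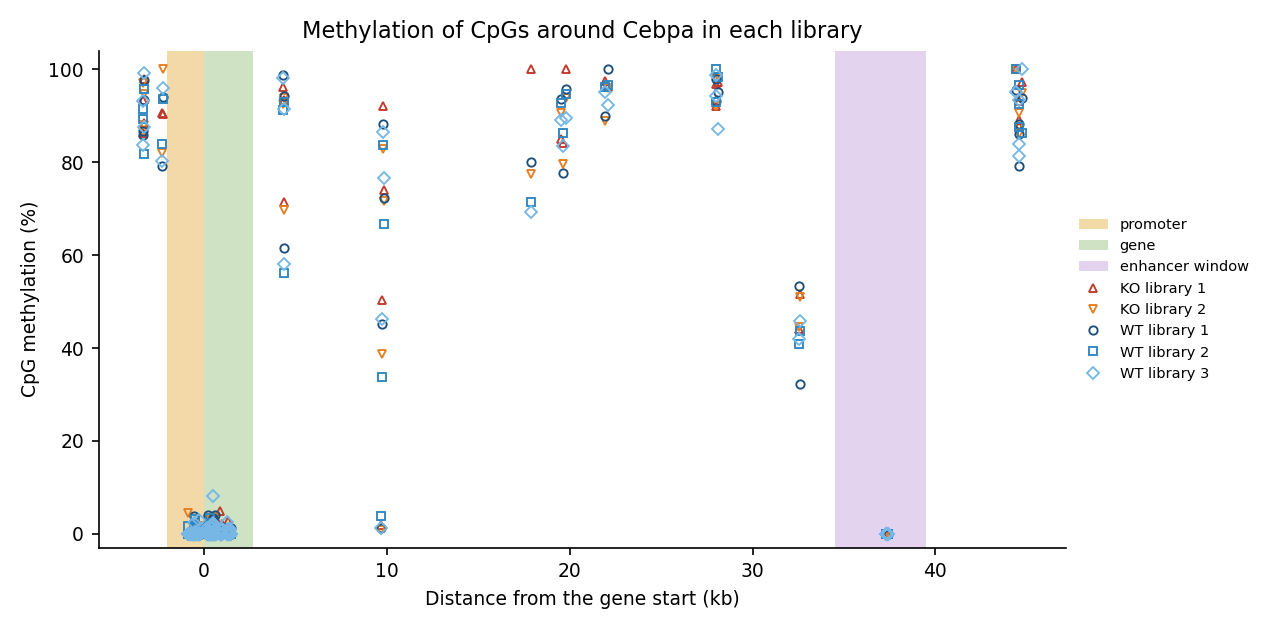
CpG methylation (percent, y axis) against distance from the gene start (kb, x axis) for the 162 CpGs covered in all libraries, with 1 symbol per library and shading for promoter, gene and enhancer window. Levels are near 0 in the block over promoter and gene and at the 5 CpGs of the enhancer window, and mostly over 80% elsewhere.

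Outside these unmethylated stretches most CpGs were methylated. The upstream flank held 6 CpGs covered in all libraries, the gap between gene and enhancer window 18, and the downstream flank 5. Of all 162 CpGs, 134 (82.7%) averaged under 20% over the libraries, 6 (3.70%) from 20 to 80%, and 22 (13.6%) over 80%. Among autosomal CpGs these shares were 61.2%, 6.67% and 32.2%, and 128 of the window's 134 CpGs under 20% lay in the block over promoter and gene.

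An exception stood 9.7 kb past the gene start. The CpG at 35913981 was at 1.89% and 0.735% in KO libraries 1 and 2, against 1.32%, 3.77% and 1.27% in WT libraries 1, 2 and 3. Only 76 bp further, 35914057 was at 50.4% and 38.8% in the KO libraries and at 45.2%, 33.7% and 46.3% in the WT libraries, on 239 to 256 reads each. The Wilson 95% interval was 44.3 to 56.5% in KO library 1, the highest, and 28.1 to 39.9% in WT library 2, the lowest. Another 53 bp on, 35914110 was at 92.1% and 82.9% in the KO libraries, against 88.2%, 83.7% and 86.4% in the WT libraries. This climb from unmethylated to methylated over 3 neighbouring CpGs was present in every library, and the groups overlapped at each of the CpGs.

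At 35914057 both strands were read and gave like levels. The forward strand had 51.7% and 40.4% in the KO libraries, against 49.0%, 33.8% and 46.2% in the WT libraries. The reverse strand had 48.6% and 36.4% in the KO libraries, against 39.4%, 33.7% and 46.4% in the WT libraries. The partial level of this CpG was thus present on each strand by itself. Steps of at least 25 points between neighbours within 100 bp made up 2.30% of 855565 autosomal pairs, and 3 such steps lay in the window. Besides these 2, there was a drop from 93.2% at 35908658 to 63.4% at 35908671 (means of the 5 libraries), 13 bp apart.

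At the pair of CpGs before the enhancer, 35936862 and 35936909, the merged level lay between strands that were far apart. The merged level of 35936862 was 44.1% and 44.5% in KO libraries 1 and 2, against 53.3%, 40.8% and 41.9% in WT libraries 1, 2 and 3. Its forward strand was at 100% and 95.1% in the KO libraries, against 93.0%, 88.4% and 94.7% in the WT libraries. Its reverse strand was at 1.10% and 0% in the KO libraries, against 0%, 1.90% and 0% in the WT libraries. Forward and reverse strand were therefore near opposite ends of the scale in all 5 libraries.

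At 35936909, 47 bp further, the strands were swapped. The forward strand was at 0% and 3.92% in the KO libraries, against 1.16%, 1.19% and 0% in the WT libraries. The reverse strand was at 91.2% and 92.2% in the KO libraries, against 72.7%, 77.9% and 81.2% in the WT libraries. Both CpGs were read by nearly the same reads: the forward coverage was 70 reads at either CpG in KO library 1, and 102 at either one in KO library 2. Reads were 50 bp long, per the labels' protocols, and so reach from one CpG to the other. In each library, the strand entry at the far end of these reads was the one near 0%. As background, end repair of MspI fragments fills in their ends with unmethylated cytosine, and a read that reaches the far end of a short fragment reads those bases; the part of this step in these values was not tested. Of 267278 autosomal CpGs covered on both strands in all libraries, 6782, or 2.54%, had strands at least 50 points apart in every library. That is 11.0% of the 61615 such CpGs that were methylated on a strand, and in the window it was 2 of 5.

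**Figure D3:**
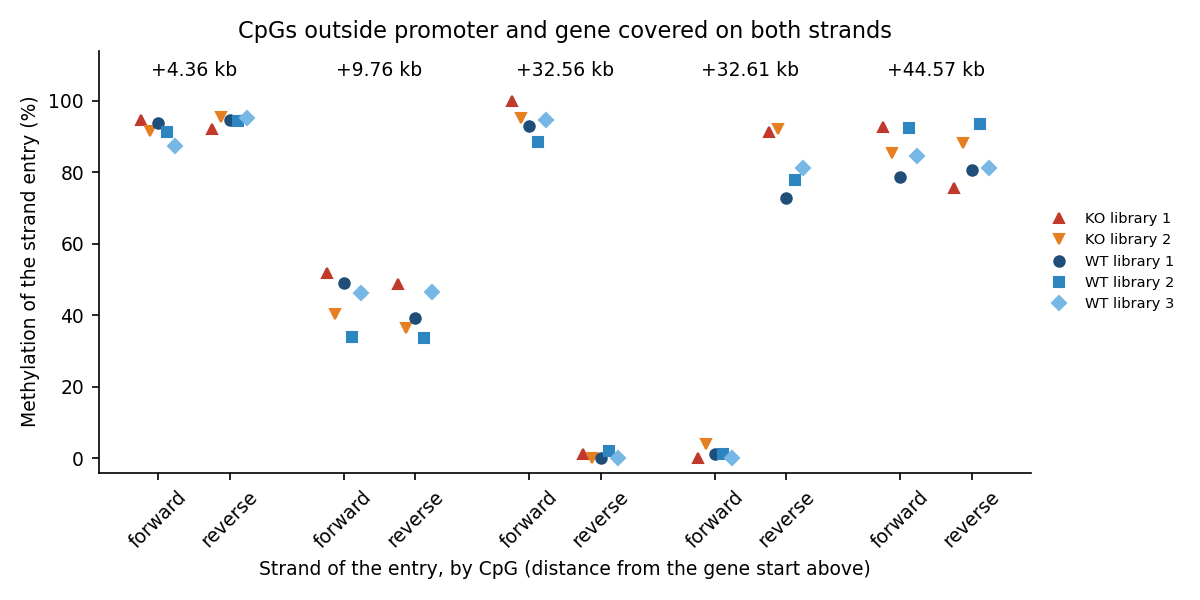
Methylation of the forward and the reverse strand entry (percent, y axis) at the 5 CpGs outside promoter and gene that all libraries covered on both strands, with the distance from the gene start above each pair and 1 symbol per library. The strands are near opposite ends of the scale at the 2 CpGs 32.6 kb past the gene start and closer together at the other 3. Among those 3, KO library 1 had 92.7% on the forward and 75.6% on the reverse strand at 35948872.

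The comparison of KO with WT libraries asked whether methylation at this locus differed with the targeted allele. Over the 162 CpGs the mean level was 15.4% and 14.9% in KO libraries 1 and 2, against 14.8%, 14.7% and 14.7% in WT libraries 1, 2 and 3. Both KO libraries lay above all WT libraries, with a difference of 0.380 points (exact permutation test, two-sided, p = 0.1, the smallest this design allows). This is about as large as the SD between the KO libraries, 0.351 points, and pairwise differences ran from 0.0306 to 0.688 points. Over all autosomal CpGs both KO libraries also lay above all WT libraries. The means there were 35.1% and 34.4% in KO libraries 1 and 2, against 34.3%, 34.2% and 34.2% in WT libraries 1, 2 and 3. Without KO library 1 the window's difference was 0.132 points, and without KO library 2 it was 0.628 points. Over every CpG covered in a library it was 1.05 points (exact permutation p = 0.6). With reads pooled over the CpGs it was 2.99 points (exact permutation p = 0.4), and the groups overlapped, with 3013 of 16936 and 2418 of 24388 counts methylated in the KO libraries, against 2277 of 21342, 2382 of 22034 and 2219 of 19962 in the WT libraries. Without the pair of CpGs whose strands are far apart, left out after their values were seen, it was 0.325 points (exact permutation p = 0.2), and KO and WT libraries no longer separated.

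In the upstream flank the KO libraries lay above all WT libraries. Its 6 CpGs averaged 91.1% and 91.4% in KO libraries 1 and 2, against 89.5%, 89.3% and 90.0% in WT libraries 1, 2 and 3. KO libraries were higher than WT libraries by 1.64 points, with pairwise differences from 1.12 to 2.05 points (exact permutation p = 0.1, adjusted over 5 segments p = 0.5). The same order was present over all autosomal CpGs that averaged over 80%. These were at 94.7% and 94.1% in KO libraries 1 and 2, against 93.9%, 93.8% and 93.6% in WT libraries 1, 2 and 3. On the forward strand alone the KO libraries of this flank still lay above all WT libraries (3.33 points, exact permutation p = 0.2). The separation was lost on the reverse strand alone (-0.0441 points, exact permutation p = 0.9). It was also lost over every CpG covered in a library (2.32 points, exact permutation p = 0.3). The CpG at 35900945 in this flank had 93.4% and 97.1% in the KO libraries, against 86.0%, 91.4% and 93.1% in the WT libraries. The lower KO library and the highest WT library lay close together there.

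In the gap between gene and enhancer window the groups overlapped. Its mean was 79.1% and 75.6% in KO libraries 1 and 2, against 76.1%, 74.5% and 74.7% in WT libraries 1, 2 and 3. The difference of 2.23 points (pairwise from -0.535 to 4.60, exact permutation p = 0.3, adjusted p = 0.667) was 0.450 points without KO library 1 and 4.01 points without KO library 2. The downstream flank had 93.5% and 91.8% in the KO libraries, against 88.6%, 92.7% and 90.8% in the WT libraries. Its difference of 2.0 points (pairwise from -0.831 to 4.92) lay within the spread between libraries (exact permutation p = 0.4, adjusted p = 0.667). It was 1.17 points without KO library 1, 0.946 without WT library 1 and 2.996 without WT library 2.

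**Figure D4:**
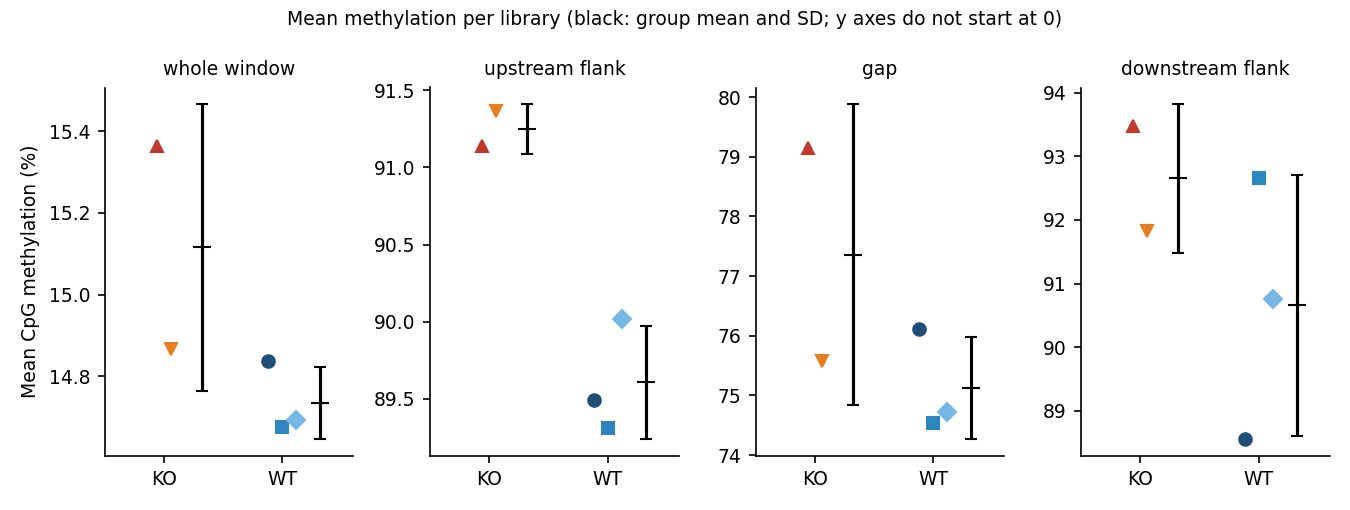
Mean CpG methylation per library (percent, y axis, not starting at 0) over the whole window, upstream flank, gap and downstream flank, with KO left of WT, 1 symbol per library, and the group mean and SD in black. KO and WT libraries do not overlap over the whole window and in the upstream flank, and overlap in the other 2 segments.

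In 1000 bp tiles with at least 3 CpGs, no tile of the window was called. The edgeR quasi-likelihood test, fitted on all autosomal tiles, called 0 of the 8 tested tiles, where a call needed 10 points or more and a Benjamini-Hochberg adjusted p below 0.05. Of all 90338 tiles 0.0166% were called, 0.00221% higher and 0.0144% lower in KO. An unadjusted p under 0.05 was reached by 0 of the 8, against 6.33% of all tiles, 5.35% higher and 0.974% lower in KO. limma also called 0 of the 8 tiles, with 0 at an unadjusted p under 0.05, against 5855 of all 90338 tiles. The pooled chi-square test, which holds no spread between libraries, called 0 as well. In that test 2 of the 8 had an unadjusted p under 0.05, against 21611 of all 90338 tiles. The tile differences had a median of 1.17 points in the window, against 0.286 points over all tiles. Without KO library 1 the medians were 0.0750 and 0.0751 points, so that contrast rested on this library. The window's median was 0.623 points without WT library 1 and 0.628 without WT library 3.

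The 3 tiles over promoter and gene differed least. The tile from 35904001 to 35905000, with 68 CpGs, was at 0.437% and 0.375% in KO libraries 1 and 2, against 0.478%, 0.276% and 0.342% in WT libraries 1, 2 and 3 (edgeR adjusted p = 0.962). Among the 5 tiles with the largest differences, that from 35914001 to 35915000 led. Its 3 CpGs, with 446 to 611 counts per library, were at 69.4% and 61.2% in the KO libraries, against 64.3%, 56.4% and 62.6% in the WT libraries. The groups overlapped, and the difference of 4.21 points had an edgeR adjusted p of 0.880. It was 0.122 points without KO library 1 and 8.29 without KO library 2.

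The tile from 35908001 to 35909000, just past the gene, was the one tested tile of the window whose groups did not overlap. Its 3 CpGs were at 88.7% and 86.6% in the KO libraries, against 85.8%, 82.0% and 84.1% in the WT libraries. The log2 odds differed by 0.44 ± 0.28 (SE, edgeR adjusted p = 0.810). Among all tested tiles, KO libraries lay above all WT libraries in 17.2%, and below all in 5.23%. The tiles from 35901001, 35948001 and 35932001 had differences of 1.90, 2.23 and 0.436 points, with edgeR adjusted p-values of 0.869, 0.902 and 0.976. The tile from 35948001 was at 0.820 points without WT library 1, 4.66 without WT library 2 and 1.22 without WT library 3.

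At single CpGs, 115 of the 162 could be tested, and the other 47 had no methylated read in any library. The edgeR quasi-likelihood test over 756719 autosomal CpGs called 0 of the 115, with 25 points or more needed beside the same adjusted p. Of all tested CpGs 0.00859% were called, 0.00238% higher and 0.00621% lower in KO. limma and the pooled chi-square test called 0 as well. An unadjusted p under 0.05 was reached by 4 of the 115 in edgeR, or 3.48%, against 2.97% of all tested CpGs. In limma 4 of the 115 reached it, against 39666 of all 756719 tested CpGs. In the chi-square test 10 of the 115 did, against 92777 of all 756719. KO libraries lay above all WT libraries at 10 CpGs, or 8.70%, against 10.6% of all tested CpGs, and below all at 2, or 1.74%, against 4.99%. These shares are near or under those of the whole table.

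The 4 CpGs with an unadjusted p under 0.05, named after their values were seen, all lay in the unmethylated block and had 0 methylated reads in every WT library. All were higher in KO, a direction in which 2.29% of all tested CpGs reached that p, against 0.681% lower in KO. At 35904839 the KO libraries had 2.53% and 3.73% (79 and 134 reads), against 0% in all WT libraries (97 to 133 reads). At 35904851, the next CpG, the KO libraries averaged 2.03% (78 and 133 reads). The coverage of these 2 neighbours was nearly the same, so they share reads and are not independent of each other. At 35903972 the KO libraries had 0.585% and 1.67%, and at 35904511 0% and 2.92%. The edgeR adjusted p of each of the 4 CpGs was 0.876.

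Of the 115 tested CpGs, 51 were higher and 64 lower in the KO libraries, with a median difference of -0.157 points, against 0.202 points over all tested CpGs. The 5 CpGs with the largest differences were all higher in the KO libraries, and none passed the adjusted threshold (edgeR adjusted p = 0.876 for each). The largest difference, 15.2 points, was at 35922205, which had 100% and 77.4% in KO libraries 1 and 2, against 80%, 71.4% and 69.2% in WT libraries 1, 2 and 3. It rests on 20 to 52 reads per library, KO library 2 fell within the WT range, and the difference was 3.87 points without KO library 1 and 26.4 without KO library 2.

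At 35908671, 4.37 kb past the gene start, the KO libraries had 71.5% and 69.8%, against 61.5%, 56.1% and 58.1% in the WT libraries. The groups did not overlap, with a difference of 12.1 points (62 to 139 reads, log2 odds 0.77 ± 0.59, SE). The difference kept its direction with each library left out, at 10.9 to 13.6 points, while the edgeR or limma adjusted p ran from 0.866 to 0.966 over its alternatives, and that of the chi-square test was 0.107. Single Wilson 95% intervals still overlapped, at 61.7 to 76.8% in KO library 2 and 52.1 to 70.1% in WT library 1.

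The CpG at 35936909, one of the pair whose strands are far apart, had merged levels of 51.6% and 50.9% in the KO libraries, against 32.2%, 43.6% and 45.9% in the WT libraries. Its difference of 10.7 points was 6.49 without WT library 1. By strand, the difference was 14.4 points on the reverse and 1.18 points on the forward strand. The merged level also moves with the mix of strands: the forward strand, the one near 0%, gave 70 of 161 and 102 of 218 reads in the KO libraries, against 86 of 152, 84 of 188 and 37 of 85 in the WT libraries. The remaining pair, 35900945 and 35901987 in the upstream flank, differed by 5.13 and 5.08 points. The difference at 35900945 was 3.03 points without WT library 1 and 3.25 without KO library 2, and that at 35901987 was 0.830 without KO library 1 and 9.34 without KO library 2. At 35901987 KO library 2, at 82.0%, lay between the WT libraries at 79.2%, 84.0% and 80.3%, and KO library 1 was at 90.5%.

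**Figure D5:**
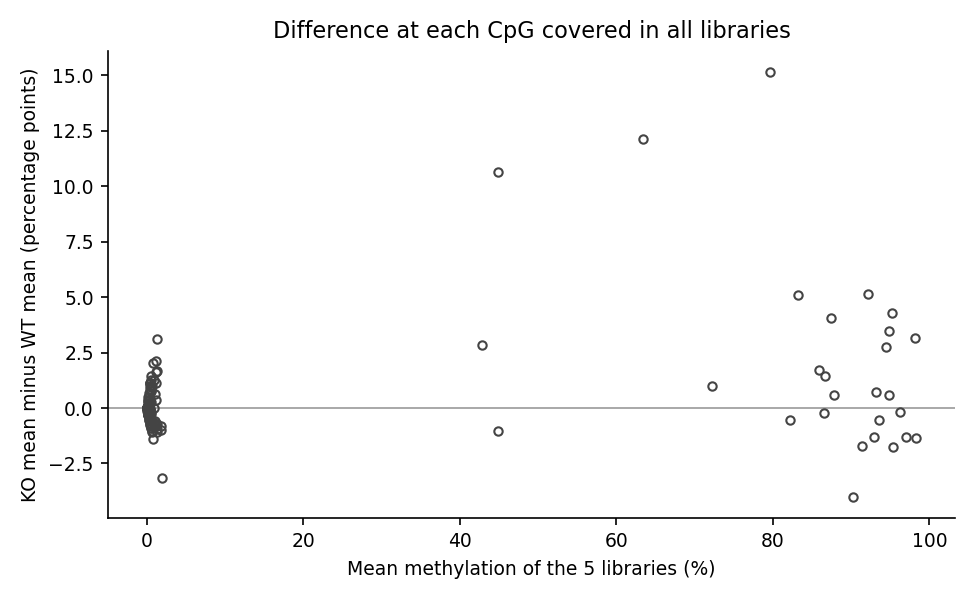
Difference of the KO mean minus the WT mean (percentage points, y axis) against the mean of the 5 libraries (percent, x axis), with 1 circle for each of the 162 CpGs covered in all libraries. The 3 differences over 10 points lie between 40 and 80% mean methylation, and the unmethylated CpGs all lie within 4 points of 0. The 3 include 35936909, whose merged level lies between strands that are far apart.

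By methylation class, the difference was 6.79 points at the 6 CpGs of 20 to 80%, which include the 2 CpGs whose strands are far apart, and 0.913 points at the 22 CpGs over 80%. The mean of the 6 CpGs was 65.3% in KO library 1 and 58.8% in KO library 2, against 57.4%, 52.1% and 56.3% in WT libraries 1, 2 and 3. The groups did not overlap there. KO library 1 lay above all WT libraries at 4 of these 6 CpGs and KO library 2 at 2. The like share of autosomal CpGs of this class was not counted, so these counts have no background. Over all autosomal CpGs of this class the groups did not overlap either. They were at 58.3% and 52.5% in KO libraries 1 and 2, against 52.0%, 51.3% and 52.0% in WT libraries 1, 2 and 3. At the 22 CpGs over 80% the means were 93.0% and 91.5% in the KO libraries, against 91.1%, 92.0% and 90.9% in the WT libraries, and the groups overlapped.

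Finally, 20 of the 182 CpGs were missing from at least 1 library and entered no test. Each had at most 32 reads in any library. The 11 of them in promoter and gene ranged from 0 to 10%, and the 9 elsewhere from 87.5 to 100%, so they took the level of their surroundings. WT library 3 covered all 20, both KO libraries 12 each, and WT libraries 1 and 2 covered 4 and 7.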

How the data were processed

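ERRBS libraries of LSK cells were made from MspI fragments of 150 to 400 bp and read as single ends of 50 bp, per the labels' protocols. The submitters' processing notes name Bismark and the build mm9 (NCBIM37), without a version. The authors' deposited tables give for every cytosine of a CpG, strands apart, the coverage as whole read counts (not normalized, at least 10) and the percent of C and of T among those reads, per the file headers.

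Percent times coverage was rounded to read counts (within 0.01 of a whole number for 99.97% of entries), strands were merged (reverse base minus 1), and each library's CpGs in the top 0.1% of coverage were left out, which removed no CpG of the window. Levels were averaged per library with every CpG weighted alike, and compared by exact two-sided permutation tests. Single CpGs, and 1000 bp tiles that held 3 or more, were tested over all autosomes with edgeR 4.0.16 (R 4.3.3, quasi-likelihood test, a factor for each library, common dispersion), a script checked on simulated data. A unit without any methylated read, or without any unmethylated one, was not tested. Standard errors of log2 odds come from the F statistic. An alternative was limma 3.58.1 on the log2 ratio of methylated to unmethylated reads, each plus 1, and figures were drawn with matplotlib 3.10.9.

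Segments run from the window's start to 2000 bp before the gene start, the promoter, the gene, the gap, 2500 bp either side of the enhancer point, and the rest. The text names the 5 tested tiles and 5 CpGs with the largest absolute difference, and all CpGs of the enhancer window. The window and segments were chosen with earlier results of these data known. Mean chi-square per tile was 2.14 to 2.51 between WT libraries and 3.74 between KO libraries, so no library was a copy of another. Other genes of the C/EBP network were not analysed here, since no mm9 annotation was used. The targeted gene is not reported here.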

Additional observations from a re-analysis of the deposited data

How the results depend on the processing

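No tile and no CpG of the window was called under any alternative run (at least 20 reads, coverage without an upper limit, no minimum difference, limma, the pooled chi-square test, the replicate block, each library left out, and for tiles 500 bp, 2000 bp and at least 1 CpG). The count over all autosomal tiles, 15, was 0 with limma, 890 with the chi-square test, 23 with the block and 2 to 18 with a library left out, and that of CpGs, 65, was 37 with limma, 385 with the chi-square test and 52 to 80 with a library left out. Where a KO library was left out, the other was assumed to vary like the WT libraries. The differences over the whole window and the gap kept their direction under the alternatives run, at 0.132 to 2.99 and 0.450 to 4.01 points. The measured CpGs of the enhancer window stayed at 0. The promoter difference, -0.0187 points, was 0.159 on the forward strand and -0.0831 to 0.0457 with a library left out. The gene difference, 0.0260 points, was -0.140 over every CpG covered in a library, -0.0578 on the reverse strand and -0.0544 to 0.106 with a library left out. On the reverse strand alone the upstream flank was at -0.0441 and the downstream flank at -0.723 points. The tile from 35901001 was at -0.390 points without KO library 1 and at 4.195 without KO library 2, and that from 35932001 at -0.349 with the replicate block and without WT library 3, and at 1.23 without WT library 2. The cause was not tested. Replicate numbers 1 and 2 occur in both groups, and same-numbered libraries deviated from their group means with r = 0.00101 and 0.0662 across tiles. The 2 KO libraries deviate as mirror images of each other, so these values cannot decide whether a shared number marks a pairing. The replicate block gave 0.359 points for the window, 1.85 for the upstream flank and 2.03 for the gap. At 35922205, 20 to 52 reads per library gave Wilson 95% intervals such as 58.4 to 91.9% in WT library 1.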
